A study of Mus musculus with 6 samples.

Results

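The genes described here are 9 genes of DNA replication and repair, taken by name from a table of 15734 gene rows: Mcm4, Pola2, Pold4, Chaf1b, Cdca5, Prkdc, Polq, Ercc4 and Mus81. All 9 had a row, and each row had a mean above the minimum of 10 used for testing. RNA with poly(A) tails was sequenced from mouse cranial tissue at embryonic day 9.5, cut above the pharyngeal arches and otic vesicles. The 6 libraries came from 3 embryos with neural tube defects, homozygous for the msp3 allele of Smarcc1 (which encodes BAF155, part of the chromatin remodeller BAF), and from 3 homozygous wild-type embryos. Both genotypes share a mixed C57BL/6J and 129/SvImJ background. Embryos had 19 to 21 somites per the sample labels, or 21 to 23 per the design text. Values are read counts that the authors normalized per library, called normalized reads here.

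Before DNA is copied, the MCM helicase is loaded on origins and later unwinds the double helix; DNA polymerase alpha with its primase lays down primers, and polymerase delta extends them on the lagging strand. Behind the fork, chromatin assembly factor 1 places new histones on the daughter strands, and cohesin, held by sororin, keeps sister chromatids together until mitosis. Breaks and blocked forks are handled by end joining and by structure-specific nucleases. Most cells of the neural tube at this stage are cycling progenitors, so genes of replication are active in much of the tissue.

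The members lie on mouse chromosome 16 and in the first part of chromosome 19. Names and levels of rows were at odds in parts of the table, and the share of such rows was not measured. Only 82.1 ± 11.5 normalized reads stood under Actb, for beta-actin, and 7.78 ± 5.21 under Gapdh, of glycolysis (SD, n = 6 each). Around the members, levels went with what the genes are known for. Cfl1, the actin-severing protein cofilin, lies next to Mus81 and had 97676 ± 10533 normalized reads (SD, n = 6), while Fbxo40, a muscle gene beside Polq, had 24.5 ± 6.16 and Cldn14, a tight junction gene beside Chaf1b, 26.6 ± 6.78 (SD, n = 6 each); these examples were chosen after their values were seen. The fit of names to levels did not reach the end of either stretch. On chromosome 19 the members lie between 4.2 and 6.1 Mb on GRCm38, and at 6.9 to 7.2 Mb the rows of the broadly expressed genes Prdx5, Trmt112 and Cox8a had only 30.6 ± 7.74, 22.7 ± 5.86 and 21.3 ± 8.15 (SD, n = 6 each). On chromosome 16 the members lie between 13.1 and 93.9 Mb, and near 96 Mb the broadly expressed Brwd1 had 14.8 ± 3.19 while Sh3bgr, known from muscle, had 13707 ± 1081 (SD, n = 6 each). On each chromosome a point past which names were taken not to fit was placed between the members and these rows. It was set after levels were seen. On chromosome 16 it lies before the row named Kcnj6, at 94.7 Mb.

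Between 46170743 and 82067578 reads per library fell in rows. Mutant 2 stood apart from the other libraries, at 44.1 on the first principal component of the log2 values against -20.3 to 3.38 for the other 5. The row named Smarcc1, the mutated gene, had 35870, 52563 and 35022 normalized reads in mutants and 42915, 62563 and 50066 in wild type, with overlapping values. Smarcc1 lies on chromosome 9, outside both stretches. Whether names fit levels there was not tested, so this row may not hold the reads of Smarcc1. Of the listed markers of cell types, 22 had a row and 18 were tested. Summed levels of the neural tube markers Hes1, Olig2 and Olig1 were 4101 to 7559 in mutants and 4893 to 5179 in wild type. The neural crest marker Snai2 had 968 to 1142 in mutants and 901 to 1084 in wild type, and the pharyngeal marker Tbx1 had 1507 to 2074 in mutants and 2049 to 2945 in wild type (log2 difference -0.53; limma, adjusted p = 0.396). Neuronal markers summed to 9892 to 11323 in mutants and 8371 to 9701 in wild type, and they were not alike. Sst had 1034, 651 and 1227 normalized reads in mutants against 32.9, 201 and 278 in wild type, Gap43 was also without overlap (log2 difference 0.30), and Robo2 overlapped (-0.09). For endothelium (Cldn5 and Erg, Erg lying past the point where names fit) the sums were 1278 to 1865 in mutants and 2190 to 2557 in wild type. Epithelial markers (3 of 3 with a row) summed to 1625 to 2680 in mutants and 1547 to 1993 in wild type, immune markers (4 of 5) to 170 to 191 in mutants and 165 to 169 in wild type, and the 4 liver markers to 116 to 140 in mutants and 126 to 140 in wild type. The 1 testis marker with a row, Prm3, had at most 4.05 in mutants and 3.16 in wild type. The genotypes did not overlap in 4 of the 18 tested markers (22.2%), Gap43, Sst, Cldn5 and Vpreb1, near the 19.1% of all rows. In the limma test 0 of the 18 were called, where 0.0225% of all rows were. Cldn5 (log2 difference -0.65; limma, adjusted p = 0.318) was called in 2 of 18 alternative fits, with an adjusted p of 0.0015 in DESeq2 and 0.044 in limma with array quality weights. Whether cell mixture had a part in the members' values was not tested. In such bulk tissue, fewer cells of a type and less RNA per cell cannot be told apart.

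Promoter windows, from 250 bases before to 50 after the RefSeq gene start on build GRCm38.p6, were matched for 7 of the 9 genes. Those of Cdca5, Chaf1b and Pola2 are shown because these 3 genes had the most alike profiles of the 9 over the libraries. That of Polq is shown because it is the other window with the motif marked in capitals. They span chr19:6084847-6085146 (plus strand) for Cdca5, chr16:93883651-93883950 (plus strand) for Chaf1b, chr19:5964157-5964456 (minus strand) for Pola2 and chr16:37011536-37011835 (plus strand) for Polq. Capitals mark matches to the CHR, the cell cycle genes homology region, an element bound by the MuvB complex in genes active late in the cell cycle.
Cdca5: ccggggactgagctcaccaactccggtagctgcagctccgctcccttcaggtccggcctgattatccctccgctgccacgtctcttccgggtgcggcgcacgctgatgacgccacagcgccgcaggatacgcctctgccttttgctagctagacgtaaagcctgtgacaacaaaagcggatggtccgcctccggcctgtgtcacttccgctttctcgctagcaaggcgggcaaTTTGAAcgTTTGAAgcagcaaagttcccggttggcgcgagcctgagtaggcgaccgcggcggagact
Chaf1b: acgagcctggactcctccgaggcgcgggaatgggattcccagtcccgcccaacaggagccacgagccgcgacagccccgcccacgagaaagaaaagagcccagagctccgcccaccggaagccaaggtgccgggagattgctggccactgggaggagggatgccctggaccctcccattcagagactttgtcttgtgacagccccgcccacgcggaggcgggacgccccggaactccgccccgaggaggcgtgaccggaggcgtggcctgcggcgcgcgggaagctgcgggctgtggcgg
Pola2: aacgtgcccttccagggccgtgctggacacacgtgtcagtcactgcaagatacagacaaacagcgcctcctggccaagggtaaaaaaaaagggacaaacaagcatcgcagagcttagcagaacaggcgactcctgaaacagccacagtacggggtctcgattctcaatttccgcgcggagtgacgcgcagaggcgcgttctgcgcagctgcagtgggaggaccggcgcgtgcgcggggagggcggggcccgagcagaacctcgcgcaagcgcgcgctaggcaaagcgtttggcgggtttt
Polq: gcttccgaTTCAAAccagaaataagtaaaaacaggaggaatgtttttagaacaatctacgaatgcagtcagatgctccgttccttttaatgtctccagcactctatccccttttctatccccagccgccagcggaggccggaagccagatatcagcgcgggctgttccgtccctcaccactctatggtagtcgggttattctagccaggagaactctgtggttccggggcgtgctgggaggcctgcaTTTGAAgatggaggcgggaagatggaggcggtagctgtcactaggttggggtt
The CHR was searched as TTTGAA or TTCGAA on both strands and was found in 2 of the 7 windows, Cdca5 and Polq; 19.2% of all 32851 windows hold it. In Cdca5 both matches lie close to the start, their first bases 17 and 9 bases before it. In Polq one match begins 3 bases before the start and the other 242 bases before it. The CCAAT box, CCAAT on either strand, was found in Pold4 and Ercc4 (37.4% of all windows). E2F motifs, searched as TTTCGCGC, TTTGGCGC or TTTCCCGC, were in 0 of the 7 windows (1.84% of all), and the palindromic NRF1 core was in 0 of the 7 (0.971% of all). Only these exact strings were searched. Sites with other letters were not counted, so the 0 does not show that E2F or NRF1 sites are absent. The windows of Chaf1b, Cdca5 and Pola2 had 70.3%, 62.0% and 61.3% G and C, and that of Polq 52.7%, which is also the median of all windows.

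Per length of transcript, Mcm4, Chaf1b, Pola2 and Cdca5 were the highest of the 9, the repair genes were lower, and Pold4 was the lowest. In normalized reads per kb of the main annotated transcript, Mcm4 had 11814 ± 266 in mutants and 12705 ± 373 in wild type (SD, n = 3 each). Chaf1b had 5932 ± 500 in mutants and 5589 ± 158 in wild type, Pola2 5603 ± 524 in mutants and 5432 ± 84.5 in wild type, and Cdca5 3974 ± 407 in mutants and 3865 ± 132 in wild type (SD, n = 3 each). The nucleases came next, Mus81 at 1029 ± 117 in mutants and 933 ± 62.5 in wild type and Ercc4 at 816 ± 35.7 in mutants and 764 ± 43.8 in wild type (SD, n = 3 each). The end-joining genes were lower still, with Polq at 655 ± 38.2 in mutants and 674 ± 24.4 in wild type, and Prkdc at 344 ± 11.1 in mutants and 332 ± 26.0 in wild type (SD, n = 3 each). Pold4 had 320 ± 47.3 in mutants and 271 ± 22.7 in wild type (SD, n = 3 each). Over the 6 libraries the mean per kb of Mcm4 was 41.5 times that of Pold4. The 6-library ranges of neighbours in the order overlapped for Chaf1b and Pola2 and for Prkdc and Pold4, and for no other neighbouring pair. The levels are a description, with no test between genes. They rest on annotated lengths from 913 bases (Pold4) to 12647 (Prkdc), and the annotation used in counting is not stated. Whether reads covered long transcripts evenly was not tested.

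**Figure D1:**
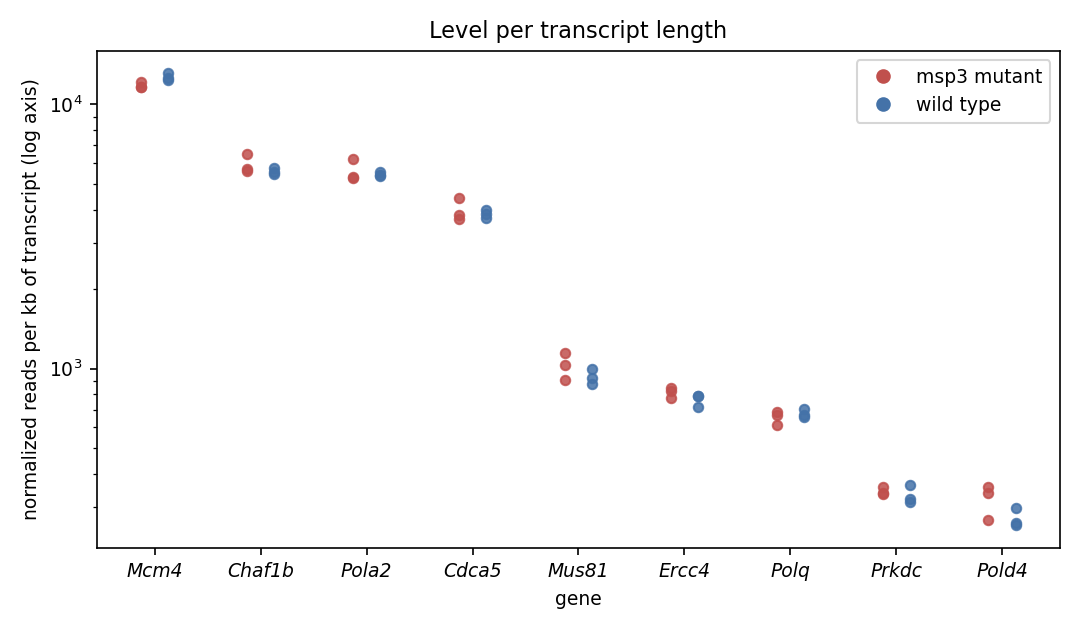
Normalized reads per kb of the main annotated transcript (log axis) for each gene and library, mutants in red left of wild type in blue. Mcm4 has at least 11656 in every library, and Prkdc and Pold4 at most 361.

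The genotypes differed beyond the test's threshold in 0 of the 9 genes. The limma test on log2 values, adjusted by Benjamini-Hochberg over the 13329 rows tested, called 3 rows in all, which is 0.0225% of them. The members' adjusted p-values ran from 0.475 to 0.873, and 0 of 9 had an unadjusted p below 0.05, where 10.8% of all rows did. On recovered reads 0 of 9 were called by edgeR, which called 0.0371% of all rows, and 0 of 9 by DESeq2, which called 1.49% of the rows it adjusted. The labels describe separate embryos, so the p-values weigh each difference against the spread between embryos of a genotype. In limma the variance of each gene was drawn toward a trend over all rows. Estimates below are limma's log2 differences, mutant minus wild type, each with its standard error (SE) and 95% interval.

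The replicative helicase gene Mcm4, a subunit of the ring that unwinds DNA, was the only one of the 9 whose genotypes did not overlap. It had 41832, 41865 and 43501 normalized reads in mutants 1, 2 and 3, against 47072, 44453 and 45272 in wild type 1, 2 and 3. All 3 mutants lay below all 3 wild-type libraries. The estimate was -0.10 (SE 0.050, 95% interval -0.22 to 0.01; limma, adjusted p = 0.475); as a percentage of wild type, -7.01%. An exact two-sided permutation test gave p = 0.1, the smallest that 3 against 3 allows. Genotypes were likewise apart in 19.1% of all rows tested, and with all mutants lower in 10.4%, so 1 of 9 was not above the background. With quantile normalization the Mcm4 values of the genotypes overlapped.

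Pola2, the regulatory B subunit of polymerase alpha with primase, had 12759, 15027 and 12910 normalized reads in mutants 1, 2 and 3, against 13058, 13384 and 13007 in wild type. Mutant 2 was the highest of the 6 libraries and the other mutants were the lowest. This gave an estimate of 0.04 (SE 0.074, 95% interval -0.13 to 0.21; limma, adjusted p = 0.837), and -0.03 without mutant 2. Pold4, the smallest subunit of polymerase delta, had 308, 325 and 244 normalized reads in mutants 1, 2 and 3, against 233, 238 and 271 in wild type. Mutants 1 and 2 were the highest, and mutant 3 lay among the wild-type values. It had the largest estimate of the 9, 0.23 on the log2 scale (SE 0.15, 95% interval -0.11 to 0.57; limma, adjusted p = 0.563). Pold4 was also the lowest row, with 170 to 331 reads per library, and its interval was the widest. The estimate was 0.15 without mutant 2 and 0.36 without mutant 3.

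Chaf1b, the p60 subunit of chromatin assembly factor 1, had 10776, 12507 and 10920 normalized reads in mutants 1, 2 and 3, against 11079, 10491 and 10656 in wild type. Only mutant 2 lay outside the range of wild type. For Chaf1b the estimate was 0.08 (SE 0.072, 95% interval -0.08 to 0.25; limma, adjusted p = 0.659), and 0.01 without mutant 2. Cdca5, which encodes sororin, the protector of cohesin, had 7714, 8980 and 7432 normalized reads in mutants 1, 2 and 3, against 8091, 7557 and 7817 in wild type. The mutants held both the highest and the lowest library. Its estimate was 0.04 (SE 0.082, 95% interval -0.15 to 0.22; limma, adjusted p = 0.873), and -0.05 without mutant 2.

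Of the end-joining genes, Prkdc encodes the catalytic subunit of DNA-dependent protein kinase, which acts in the classical pathway. It had 4245, 4295 and 4510 normalized reads in mutants 1, 2 and 3, against 4069, 4570 and 3950 in wild type. All 3 mutants lay within the range of wild type. The difference came to 0.05 (SE 0.077, 95% interval -0.12 to 0.23; limma, adjusted p = 0.785), and 0.01 to 0.12 with each library left out in turn. Polq encodes polymerase theta, which joins ends through short stretches of matching sequence. It had 5240, 5690 and 5875 normalized reads in mutants 1, 2 and 3, against 5695, 5997 and 5596 in wild type. Mutant 1 was the lowest library and the rest overlapped. Here the estimate was -0.04 (SE 0.070, 95% interval -0.20 to 0.12; limma, adjusted p = 0.823), and 0.01 without mutant 1.

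Both nucleases had estimates above 0 and overlapping values. Ercc4 (XPF), which with ERCC1 cuts on the 5′ side of bulky lesions in nucleotide excision repair, had 2870, 2946 and 2703 normalized reads in mutants 1, 2 and 3, against 2754, 2737 and 2482 in wild type. Mutants 1 and 2 lay above every wild-type library, and mutant 3 among them. For Ercc4 the estimate was 0.10 (SE 0.077, 95% interval -0.08 to 0.27; limma, adjusted p = 0.632), and 0.05 to 0.13 with each library left out in turn. Mus81, which with EME1 cuts branched DNA at stalled forks, had 2138, 2362 and 1878 normalized reads in mutants 1, 2 and 3, against 1906, 1811 and 2066 in wild type. Mutants 1 and 2 were again the highest, and mutant 3 was lower than wild type 1 and 3. For Mus81 it was 0.14 (SE 0.10, 95% interval -0.10 to 0.37; limma, adjusted p = 0.607), and 0.06 without mutant 2 or 0.22 without mutant 3. The annotated Mus81 overlaps Efemp2, on the other strand, by 173 bases at its end, and the use of strand in counting is not given in the sources used here, so some reads could belong to either gene.

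**Figure D2:**
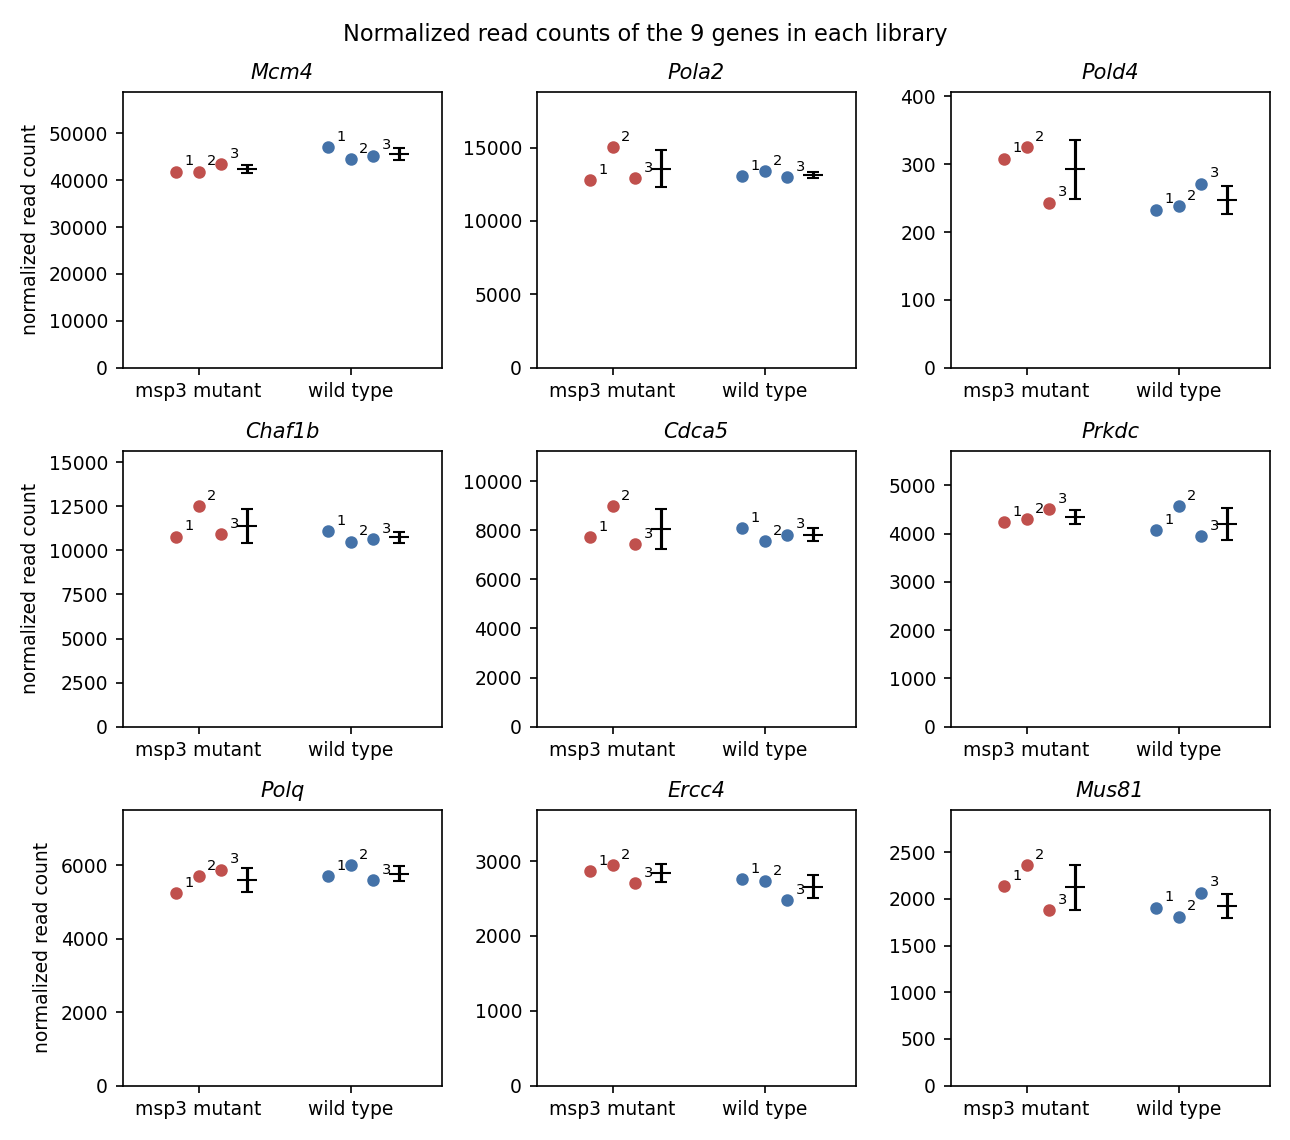
Normalized reads of each gene in each library, mutants in red and wild type in blue, with the replicate number beside each point and the mean ± SD (n = 3) in black; each axis starts at 0. Mcm4 is the 1 gene whose mutants, at 41832 to 43501, all lie below wild type, at 44453 to 47072.

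The size of difference that the data leave room for was small in most of the 9 genes. The 95% intervals lay within 0.3 on either side of 0 on the log2 scale in 7 of the 9, and within 0.5 in 8, with Pold4 beyond. Over all rows tested 25.3% of intervals lay within 0.3, and over rows with a mean of at least 2000, a level that 8 of the members reach, 63.9% did. As a percentage of wild type, the intervals ran from -14.0% to 0.588% for Mcm4, -8.42% to 15.6% for Pola2, -9.91% to 16.6% for Cdca5 and -7.50% to 48.9% for Pold4. The median log2 difference of the 9 was 0.05, with 7 estimates above 0 and 2 below, against -0.005 over all rows tested, of which 48.9% were above 0. Over the rows of both stretches the median was 0.024, and 54.8% were above 0. The median of the 9 was 0.015 without mutant 2 and 0.090 without mutant 3. The median of the absolute difference was 0.083 in the 9 and 0.139 over all rows, and 0.076 over rows with a mean of at least 2000.

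Mutant 2 was the highest of the 6 libraries in 6 of the 9 genes (Pola2, Pold4, Chaf1b, Cdca5, Ercc4 and Mus81), wild type 2 in Prkdc and Polq, and wild type 1 in Mcm4. Over all rows tested mutant 2 was the highest in 27.9%, over rows of both stretches in 39.5%, and over rows with a mean of at least 2000 in 40.2%. Of the 26 other tested genes of replication, repair and segregation described below, it was the highest in 14 (53.8%). The trait was thus not particular to the 9 genes. Relative to each gene's 6-library mean, the median departure of the 9 genes on the log2 scale was 0.17 in mutant 2, against -0.04 and -0.02 in mutants 1 and 3 and -0.02 to 0.003 in wild type. For the 4 members on chromosome 19 it was 0.20 in mutant 2, and for the 5 on chromosome 16 it was 0.01. The part of this library in the estimates can be read from their values without it, given above for Pola2, Pold4, Chaf1b, Cdca5 and Mus81. Without mutant 2 the estimate was -0.096 for Mcm4, 0.063 for Prkdc, -0.054 for Polq and 0.069 for Ercc4.

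**Figure D3:**
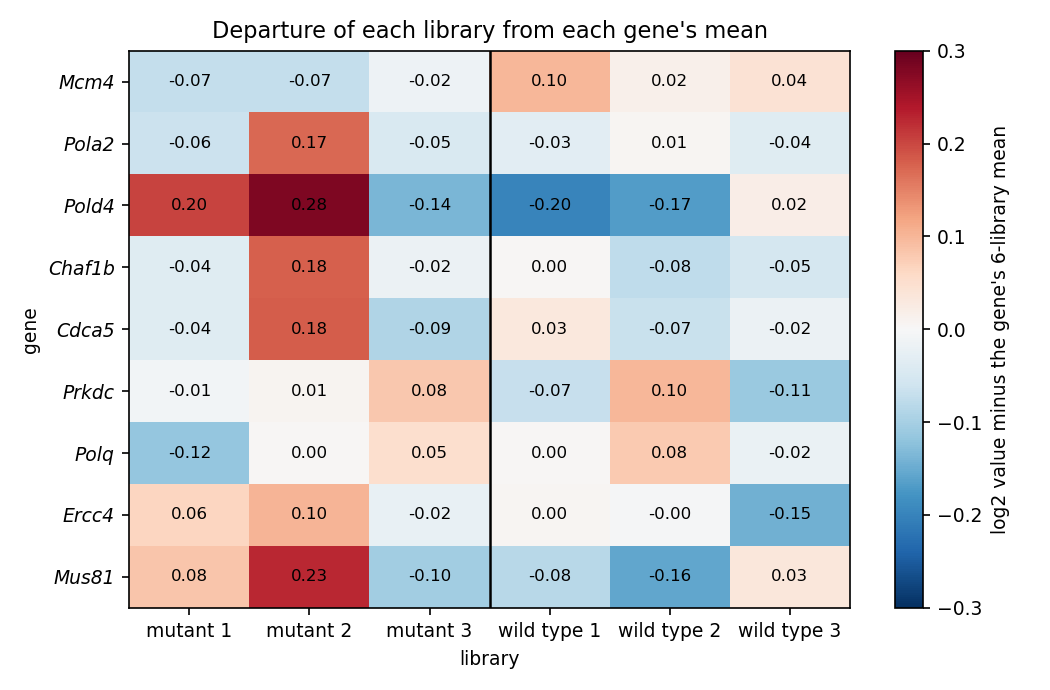
Departure of each library (columns, mutants left of the line) from each gene's mean over the 6 libraries, on the log2 scale. Mutant 2 is highest in Pola2, Pold4, Chaf1b, Cdca5, Ercc4 and Mus81, by 0.10 to 0.28 over the mean, while for Mcm4 all 3 mutants are below it.

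The profiles over the 6 libraries were closest for Pola2, Chaf1b and Cdca5, the genes of priming, histone deposition and cohesion whose windows are printed above. The likeness of a pair was measured as the root mean square difference of their departures, in log2 units. Of 36 pairs, the smallest were Chaf1b with Cdca5 (0.035), Pola2 with Chaf1b (0.040) and Pola2 with Cdca5 (0.045). Prkdc with Polq (0.067) and Mcm4 with Polq (0.069) came next. The least alike pairs were Mcm4 with Pold4 (0.236) and Pold4 with Polq (0.230). All values of a pair come from the same libraries, so a shared library moves both genes at once. Mutant 2 lay 0.17 above the mean in Pola2 and 0.18 above it in Chaf1b and Cdca5. Of 584 other rows, the nearest to each was nearer than these pairs: Trmt2a to Pola2 (0.014), Mis18a to Chaf1b (0.018) and Mrpl39 to Cdca5 (0.017).

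Mcm4 and Prkdc are neighbours on opposite strands, with 465 bases between their annotated starts. Their profiles differed by 0.114. Mcm4 had 9.85, 9.75 and 9.65 normalized reads for each one of Prkdc in mutants 1, 2 and 3, against 11.6, 9.73 and 11.5 in wild type. The ratio was thus nearly the same in the mutants and in wild type 2, and higher in wild type 1 and 3 (exact two-sided permutation test of its log2, p = 0.3). Cdca5 likewise lies back to back with Zfpl1, 26 bases away on the other strand, whose row had 2837 ± 228 normalized reads (SD, n = 6) and an estimate of 0.07 (limma, adjusted p = 0.771).

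Of 584 other rows of both stretches with a mean of at least 100, the 5 whose profile was nearest to the mean profile of the 9 genes, with root mean square differences of 0.017 to 0.028 against a median of 0.113, were named Cdip1, Mark2, Kat5, Sf1 and Dgcr14. Kat5 is the TIP60 acetyltransferase. Mark2 lies past the point where names fit. For single genes over the same 6 libraries, the nearest row was Kcnj6 for Mcm4 (0.031), Trmt2a for Pola2 (0.014), Snx15 for Pold4 (0.043), Mis18a for Chaf1b (0.018), Mrpl39 for Cdca5 (0.017), Synj1 for Prkdc (0.033), Suv420h1 for Polq (0.027), Slc29a2 for Ercc4 (0.020) and Rela for Mus81 (0.030). The row named Kcnj6 also lies past the point where names fit.

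Other genes of replication, repair and chromosome segregation in both stretches gave a like picture. Of 32 listed genes, 28 lie there, 27 had a row and 26 were tested, and 0 of the 26 were called (limma, adjusted p from 0.535 to 0.994), with 0 at an unadjusted p below 0.05. Their median log2 difference was 0.03, with 15 estimates above 0 and 11 below, where 54.8% of the rows of both stretches were above 0. The genotypes did not overlap in 5 of the 26 (19.2%), near the 19.1% of all rows. These 5, named after their values were seen, were Rfc4, Top3b, Kat5 and Ighmbp2, higher in mutants, and Usp7, lower in mutants.

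Among 7 replication genes 6 estimates were above 0 and 1 below. Without mutant 2, Cdc45 (-0.014), Donson (-0.034) and Ranbp1 (-0.034) turned below 0, where Hira (-0.12) already was. Rfc4, Rnaseh2c and Top3b (0.097) stayed above 0 without it. Cdc45, chosen for its role, the helicase cofactor that works with the MCM ring, had 9264 ± 176 normalized reads in mutants and 9255 ± 140 in wild type (SD, n = 3 each), an estimate of 0.001 (SE 0.055), beside the estimate of -0.10 for Mcm4. For Rnaseh2c, a subunit of the enzyme that removes ribonucleotides from DNA, the estimate was 0.20 (limma, adjusted p = 0.587), which was 0.04 without mutant 2. Rfc4, a subunit of the clamp loader, had 8265 ± 570 in mutants and 7597 ± 196 in wild type (SD, n = 3 each), an estimate of 0.12 (limma, adjusted p = 0.535) and 0.06 without mutant 2. The histone chaperone gene Hira had -0.08 (limma, adjusted p = 0.591).

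Among 13 repair genes 5 estimates were above 0 and 8 below. Without mutant 2, Rad9a turned below 0 (-0.006) and Ube2v2 above it (0.026). Parp14, an ADP-ribosyltransferase, had the largest, -0.44 on the log2 scale (SE 0.30, limma, adjusted p = 0.579) on a low level, 60.1 ± 28.7 normalized reads in mutants and 76.9 ± 2.94 in wild type (SD, n = 3 each), and it was -0.80 without mutant 2. Dtx3l, a ubiquitin ligase that pairs with PARP9, had -0.16 (limma, adjusted p = 0.663) and -0.28 without mutant 2. Rmi2, a subunit of the complex that dissolves double Holliday junctions, had -0.09 (limma, adjusted p = 0.664). The row named Otub1 had 0.12 (limma, adjusted p = 0.899) at only 40.1, 17.2 and 22.1 normalized reads in mutants and 22.0, 22.3 and 24.2 in wild type, and it lies where names no longer fit. Slx4, likewise chosen for its role, the scaffold that holds the nucleases of MUS81 and XPF, had 5930 ± 300 in mutants and 6138 ± 203 in wild type (SD, n = 3 each), an estimate of -0.05 beside 0.14 for Mus81 and 0.10 for Ercc4. None of these differences passed.

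Among 6 segregation genes 4 estimates were above 0 and 2 below, the largest being Banf1, a DNA-bridging protein of the nuclear envelope, at 0.10 (limma, adjusted p = 0.739), which was -0.03 without mutant 2. Ppp1ca (-0.062) and Cdk2ap2 (-0.074) also turned below 0 without mutant 2. Men1 (-0.046) and Usp16 (-0.032) stayed below 0, and Mis18a (0.025) stayed above. The row named Incenp, with 5.82 ± 3.46 normalized reads in mutants and 4.01 ± 2.95 in wild type (SD, n = 3 each), was under the minimum for testing and lies where names no longer fit.

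**Figure D4:**
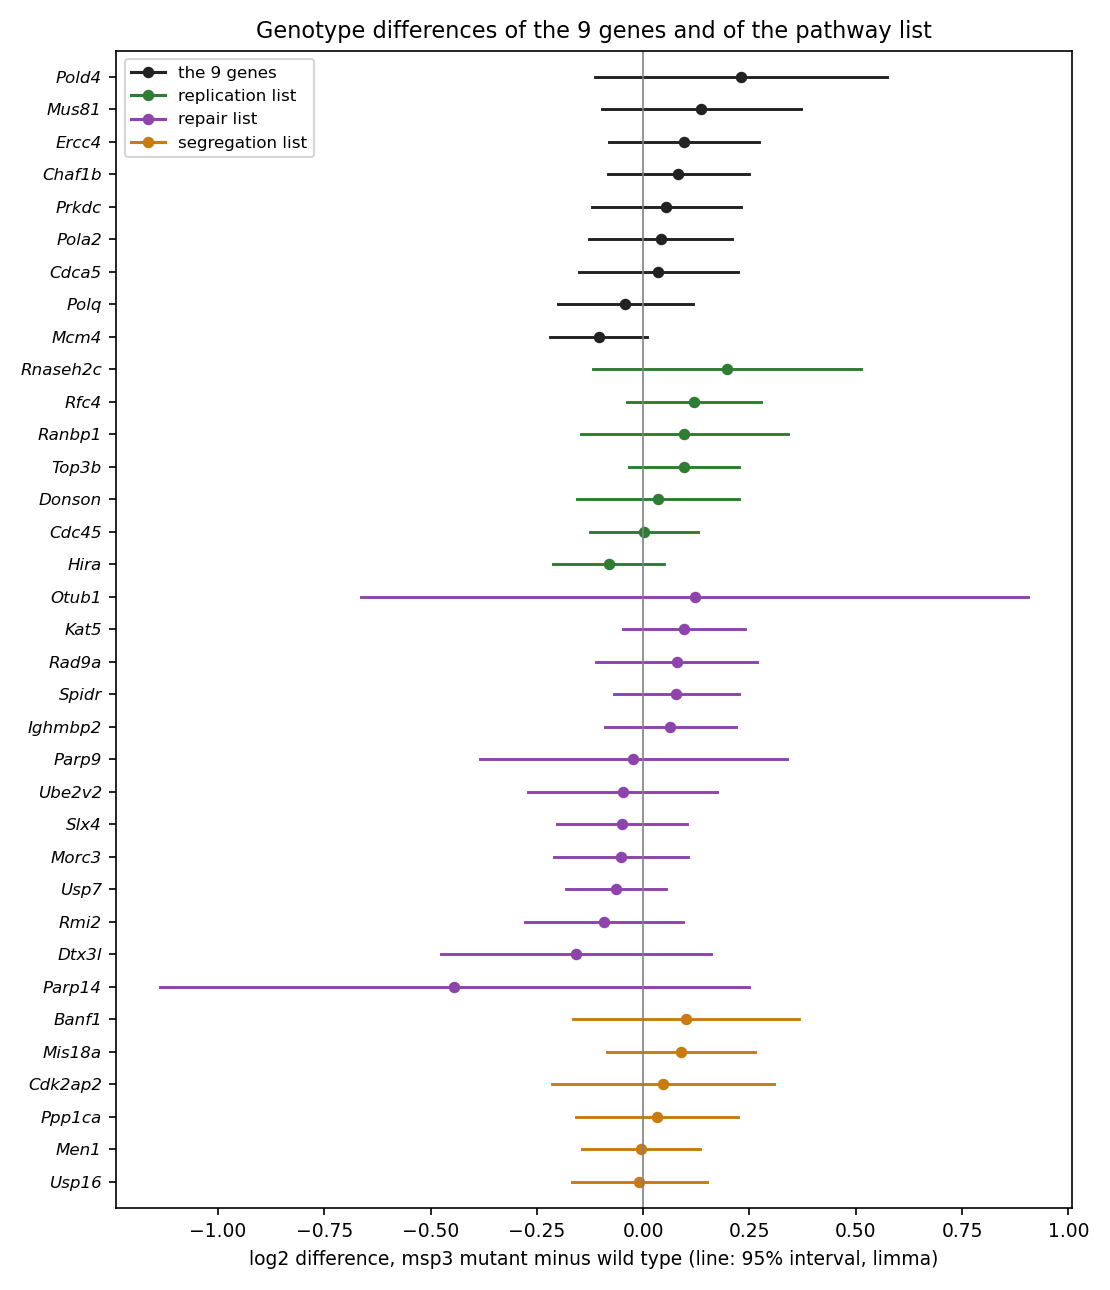
Log2 difference, mutant minus wild type, with its 95% interval (limma) for the 9 genes in black and the listed genes of replication, repair and segregation in colour. Every interval includes 0, and the estimates of the 9 genes run from -0.10 for Mcm4 to 0.23 for Pold4.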

How the data were processed

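Labels name the RNeasy and TruSeq RNA V2 kits. The submitters' processing notes list CASAVA 1.7, bedtools and the mm9 build; of their roles, the counting rule, strand use and annotation nothing is stated there. The deposited table holds normalized signal: the authors divided reads per row by 1 factor per library, since 100% of values were whole multiples of 1 step within 0.001 reads. No row of the 9 genes shared all its counts with another row. A further 12 columns of per-sample values without headers were not used.

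Because values were normalized, log2(value + 1) of rows averaging 10 or more was fitted in limma 3.58.1 (R 4.3.3, with trend). Two-sided p-values were adjusted by Benjamini-Hochberg, threshold 0.05. The fit was tested on simulated counts, with changes placed in 50 rows per fold, low rows left out. It called 54% of the 1.5-fold and 86% of the 2-fold changes, and 13 of its 183 calls were false. The real fit called only 3 rows, and the adjustment is stricter where fewer rows are called. Simulated rows were also drawn independently, without a shift of a whole library like that of mutant 2. These shares are thus not the shares that the real fit would call. Changes of these sizes, and smaller ones, can go uncalled. Fold changes on this scale understate changes of low rows. edgeR 4.0.16 and DESeq2 1.42.0 were run on the recovered reads. Positions, distances and transcript lengths come from GENCODE on GRCm38, not the authors' build; promoter windows come from RefSeq. The members and lists were chosen with earlier results of these data known. Named are the 9 genes, list genes that passed or else the 4 largest differences in each direction, and the rows of nearest profile; other genes named were chosen to show roles or names, after values were seen. Python 3.11.15 was used.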

Additional observations from a re-analysis of the deposited data

How the results depend on the processing

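Across 18 alternative fits (other scalings, filters, pseudocounts, tests, weights and libraries), 0 of the 9 genes and 0 of the listed genes passed, with smallest adjusted p-values of 0.268 and 0.160, both with array quality weights; 0 passed at an adjusted p below 0.1. Of 162 estimates for the 9 genes, 157 kept their sign. Those that turned were Pola2 (-0.021) and Cdca5 (-0.0032) with array quality weights, Pola2 (-0.035) and Cdca5 (-0.046) without mutant 2, and Polq (0.0054) without mutant 1; the cause was not tested. With each library left out in turn, Pola2 ran from -0.035 to 0.083, Cdca5 from -0.046 to 0.090 and Polq from -0.077 to 0.0054. The number of genes whose genotypes did not overlap was 1, and 0 with quantile normalization. The median log2 difference of the 9 was 0.054 and ran from 0.015 (without mutant 2) to 0.090 (without mutant 3). Deviations of same-numbered libraries correlated at -0.045, -0.00025 and 0.059 across rows, and those of other pairs of a mutant and a wild-type library at -0.065 to 0.055. Whether same-numbered embryos were handled together cannot be told from these values. With the replicate block, 0 of the 9 and 0 listed genes passed and the median was again 0.054. Depth limits Pold4 most, at 170 to 331 reads.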
